A study of Rattus norvegicus albus with 14 samples.

Results

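The second day of rosiglitazone exposure was examined in cultured heart muscle cells of the rat, by comparing cultures treated for 48 h with cultures treated for 24 h. The comparison used 8 of the 14 deposited samples, which are 4 of 7 sequencing libraries, since each library had been deposited as 2 splits of its reads. The groups were rosiglitazone 24 h and rosiglitazone 48 h, with 2 libraries each, and both had received 10 µmol/L rosiglitazone in 1% DMSO. The cells were neonatal rat ventricular myocytes from 1-day-old Sprague-Dawley pups, pooled over animals, preplated to lower the number of fibroblasts and kept in serum-free medium with insulin, transferrin and selenium. The remaining 3 libraries, 1 of DMSO and 2 of rosiglitazone at 0.5 h, entered the fit for the estimate of spread and the filter on low counts, and are given below as levels. Vehicle cultures of 24 and 48 h were not analysed here, and rosiglitazone and time in culture cannot be told apart in this comparison. The labels do not say that libraries of 1 group came from separate cultures, so the p-values measure the spread between libraries alone, part of which may be technical.

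Rosiglitazone is a thiazolidinedione, an insulin sensitiser that activates the nuclear receptor PPARγ, which pairs with RXR receptors and switches on genes of fatty acid uptake, storage and oxidation. Ventricular myocytes are built around the sarcomere, whose myosin and actin filaments contract when calcium is released from the sarcoplasmic reticulum, and they draw most of their energy from fatty acids burnt in mitochondria. Heart cultures also hold fibroblasts, endothelial cells, smooth muscle cells and macrophages. Stressed cells of several of these types can switch on NF-kB, which drives chemokines and cytokines, and interferon signalling, in which receptors act through JAK kinases and STAT factors on a large set of antiviral genes.

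Libraries held 10886559 to 28074620 counts, and replicate 2 of 48 h was the shallowest. The 2 splits of each library agreed within sampling noise (chi-square test over genes, smallest p 0.112 over the 7 libraries) and were counted as 1 sample. The 2 libraries of 24 h stood apart from each other: 5640 genes differed by more than 2-fold between them, against 3894 between the libraries of 48 h and 2052 between those of rosiglitazone at 0.5 h. Over all genes tested, log2 levels of replicate 2 of 24 h had a correlation of 0.928 and 0.924 with the libraries of 48 h and of 0.901 with replicate 1 of 24 h (a description across genes, which are not independent replicates). Medians and counts of gene groups are therefore also given with 1 library left out, and where 4 such values follow each other they are without replicate 1 of 24 h, replicate 2 of 24 h, replicate 1 of 48 h and replicate 2 of 48 h, here called library order. Levels are CPM (library-scaled counts) after TMM scaling, which are not divided by gene length, so they compare libraries and not genes. Fold changes are log2 values of 48 h over 24 h with their standard error (SE), so a negative value means a lower level at 48 h.

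Of 15655 genes tested, none passed an adjusted p of 0.05 in edgeR's quasi-likelihood test (0% in either direction, smallest adjusted p 0.161), and 1274 had an unadjusted p under 0.05. DESeq2 called 492 genes on the same counts, 137 higher and 355 lower at 48 h. Without replicate 2 of 24 h edgeR called 509 genes, and without replicate 1 of 24 h it called 0. The authors' deposited table lists 2452 genes at an adjusted p under 0.05. Of these, 2449 were tested here and 100% had the same sign, which was nearly fixed in advance because both use the same counts. With the splits of a library treated as replicates, edgeR called 2890 genes. Because no gene passed the adjusted test, gene groups are described below by 2 looser counts, each read against its share over all genes. An unadjusted p under 0.05 was met by 2.80% of all genes in the higher and 5.34% in the lower direction. These shares hold for the fit of all 7 libraries. With 1 library left out, the number of all genes at this threshold moved several-fold, over the ranges given at the end. Member counts with a library left out are therefore not compared with these shares or read as results about a list. Libraries that did not overlap, with group means at least 2-fold apart, were seen for 4.87% of genes in the higher and 8.08% in the lower direction. The median log2 fold change of all genes was -0.01, and 46.2% of genes had a positive value.

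The cultures held transcripts of myocytes and of other heart cells, against a preparation that the labels describe as nearly pure. Cardiac alpha-myosin heavy chain, Myh6, was at 1212 and 1209 CPM with rosiglitazone at 0.5 h, 385 and 90.5 CPM at 24 h and 10.2 and 33 CPM at 48 h. Collagen I, Col1a1, a fibroblast product, was at 26742 and 27690.5 CPM, 12556 and 15006 CPM and 4750.0 and 10584 CPM at the same times. In bulk RNA, fewer cells of a type and less RNA per cell cannot be told apart. Of 17 lymphocyte and granulocyte markers, 12 had no count in the 4 libraries of 24 and 48 h, among them Cd3e, Cd79a and Nkg7. An entry at 0 does not show that a transcript was absent, because Hsp90aa1, Fth1 and Rps6, which nearly every cell uses, were also listed at 0 in these libraries.

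Chemokines, the secreted proteins that attract leukocytes, were higher at 48 h in many members. Of 27 measured, 24 passed the filter on low counts, and 7 of these had an unadjusted p under 0.05 in the higher direction and 0 in the lower. Libraries of 11 did not overlap with at least a 2-fold higher mean at 48 h. Their median log2 fold change was 1.97, or 1.40 with genes that had no count in a group set at their bounds. Cxcl10, a ligand of CXCR3 that interferons and NF-kB induce, had the smallest p of all genes. It was at 9.4 and 10.7 CPM at 24 h and 189.6 and 112 CPM at 48 h, with a log2 fold change of 3.90 ± 0.38 (SE, adjusted p = 0.161). The CC chemokine Ccl6 was at 8.92 and 4.9 CPM at 24 h and 164 and 96.7 CPM at 48 h (log2 fold change 4.24 ± 0.46, adjusted p = 0.161). For both genes the 48 h libraries lay above either library of 24 h, which was a condition for naming them among the genes of smallest p. They also lay above those of 0.5 h, where Cxcl10 did not exceed 6.01 CPM and Ccl6 was 49.6 CPM in the DMSO library.

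The neutrophil-attracting CXC chemokines were higher mainly in replicate 1 of 48 h. Cxcl1 was at 98.2 and 69.4 CPM at 24 h and 852 and 217 CPM at 48 h (log2 fold change 2.67 ± 0.65, adjusted p = 0.31). Cxcl3 was at 47.7 and 35.2 CPM at 24 h and 553 and 96.2 CPM at 48 h, and Cxcl2 at 0 and 0.415 CPM at 24 h and 77.8 and 2.51 CPM at 48 h. In these 3 genes replicate 2 of 48 h was above both libraries of 24 h, but well below replicate 1. The monocyte attractants differed less. Ccl7 was at 160.2 and 93.5 CPM at 24 h and 252 and 274 CPM at 48 h without overlap, while Ccl2 was at 447 and 189 CPM at 24 h and 1072 and 386 CPM at 48 h, with overlap, as replicate 2 of 48 h lay below replicate 1 of 24 h. Median log2 fold changes of the chemokines were 3.63 without replicate 1 of 24 h, 0.98 without replicate 2 of 24 h, 1.14 without replicate 1 of 48 h and 2.21 without replicate 2 of 48 h. Members at an unadjusted p under 0.05 in the higher direction numbered 11, 3, 7 and 10 in the same order.

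Cytokines showed the same direction, and several members were high mainly in replicate 1 of 48 h. Of 20 measured interleukins, colony-stimulating factors and related ligands, 19 were tested, and 8 had an unadjusted p under 0.05 in the higher direction and 0 in the lower. Il6, the main inducer of acute-phase proteins, was at 0 and 0.678 CPM at 24 h and 58.3 and 4.74 CPM at 48 h (log2 fold change 6.49 ± 1.65, adjusted p = 0.32). Csf3, the granulocyte growth factor, was at 1.4 and 0 CPM at 24 h and 104 and 4.74 CPM at 48 h (adjusted p = 0.41). Il1a had no count at 24 h and was at 8.49 and 1.12 CPM at 48 h. Its mean at 48 h was at least 36.6-fold higher, against a limit of 3 counts in the shallower 24 h library. Replicate 2 of 48 h alone lay closer to that limit. Csf2, also without a count at 24 h, was at 6.66 and 0.837 CPM at 48 h, with a mean at least 28.6-fold higher. Csf1, the macrophage growth factor, differed less between the libraries of 48 h, at 121 and 105 CPM at 24 h and 306 and 160.4 CPM at 48 h (log2 fold change 1.05 ± 0.35, adjusted p = 0.46). The median log2 fold change was 1.05, or 1.69 with genes that had no count in a group set at their bounds. In library order the median was 1.31, 0.94, 0.78 and 1.13. Libraries of 7 (36.8%, against 4.87% of all genes) did not overlap with at least a 2-fold higher mean at 48 h. For 1 the same held in the lower direction. Without replicate 1 of 48 h fewer members passed the unadjusted threshold in the higher direction, as was so for all genes. Tnf had no count in the 4 libraries.

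Several NF-kB subunits and feedback targets were higher in both libraries of 48 h. Of 18 genes tested, 9 had an unadjusted p under 0.05 in the higher direction, 0 in the lower, and 17 had a positive fold change, with a median of 0.89. Birc3, an inhibitor of apoptosis that NF-kB induces, was at 5.99 and 10.3 CPM at 24 h and 137 and 35.3 CPM at 48 h (log2 fold change 3.40 ± 0.67, adjusted p = 0.28). Sod2, the mitochondrial superoxide dismutase, was at 532 and 418 CPM at 24 h and 2533 and 1190.2 CPM at 48 h (1.97 ± 0.41, adjusted p = 0.28). The adhesion receptor Icam1 was at 61.5 and 74.7 CPM at 24 h and 305 and 132 CPM at 48 h. Among the subunits, Relb was at 35.2 and 33.9 CPM at 24 h and 68.3 and 70.7 CPM at 48 h and Nfkb2 at 58.6 and 54 CPM at 24 h and 109 and 92 CPM at 48 h, and their libraries of 48 h were close together. Rela, the main activating subunit, was at 55.6 and 58.3 CPM at 24 h and 77.4 and 54.6 CPM at 48 h, with overlapping groups. The inhibitor Nfkbie was at 18.6 and 13.8 CPM at 24 h and 31.5 and 31.6 CPM at 48 h. Another inhibitor, Nfkbia, was at 126 and 91.5 CPM at 24 h and 235 and 122 CPM at 48 h. Its groups overlapped, as replicate 2 of 48 h lay below replicate 1 of 24 h. Leaving out replicate 1 of 48 h lowered the count in the higher direction to 4 and the median to 0.47, while leaving out either library of 24 h gave medians of 0.98 and 0.80.

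The summed level of macrophage markers overlapped between the times. Summed over 18 tested of 19 measured markers, their level was 635 and 233 CPM at 24 h and 406 and 547 CPM at 48 h, with overlap. Csf1r, the receptor that defines macrophages, was at 15.5 and 14.2 CPM at 24 h and 6.37 and 11.3 CPM at 48 h (unadjusted p = 0.067), and Cd68 was at 32.2 and 13.5 CPM at 24 h and 37 and 20.2 CPM at 48 h. At an unadjusted p under 0.05, 2 were higher and 2 lower, with a median log2 fold change of -0.29. The direction turned with the library left out: in library order the median was 0.93, -0.79, 0.07 and -0.43, with 8, 2, 2 and 2 higher and 1, 5, 1 and 4 lower. Single members of the list lay in different directions. C1qc was at 3.93 and 2.34 CPM at 24 h and 0.403 and 0.186 CPM at 48 h, while the inhibitory Fc receptor Fcgr2b was at 26.3 and 19.1 CPM at 24 h and 116 and 62.4 CPM at 48 h and the scavenger receptor Cd163 had no count at 24 h and 0.878 and 2.51 CPM at 48 h. Another marker, Cx3cr1, had no count in the 4 libraries. The part of macrophages in the chemokine result was not tested.

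**Figure D1:**
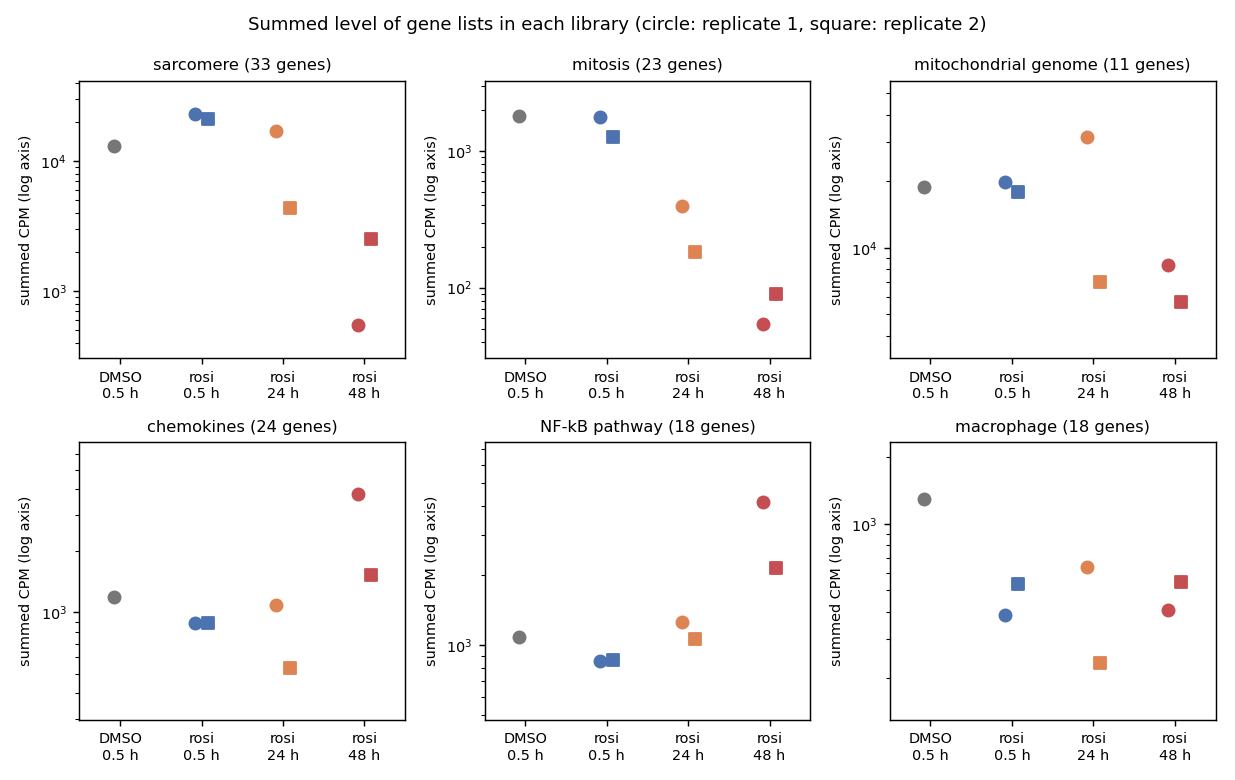
Summed CPM (log axis) of the tested members of 6 gene lists in each of the 7 libraries, by treatment and time, with a circle for replicate 1 and a square for replicate 2. Sarcomere and mitosis genes were lowest at 48 h, chemokine and NF-kB genes were highest at 48 h, macrophage markers overlapped, and mitochondrial transcripts were high in replicate 1 of 24 h alone among the libraries of 24 and 48 h.

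Interferon signalling was followed from ligands to induced genes. The 6 interferon ligands measured did not pass the filter, and 5 of them had no count in the 4 libraries. Ifne, an epithelial interferon, had 4 counts in replicate 1 of 48 h. Among the receptor chains, Ifnar2 of the type I receptor was at 19.6 and 22.8 CPM at 24 h and 48.8 and 31.7 CPM at 48 h (log2 fold change 0.93 ± 0.34, unadjusted p = 0.027, adjusted p = 0.51). Its partner Ifnar1 was at 131 and 179 CPM at 24 h and 205 and 175 CPM at 48 h. The type II receptor chains were at 211 and 106 CPM at 24 h and 166 and 199 CPM at 48 h for Ifngr1 and at 67.9 and 57.5 CPM at 24 h and 63.8 and 68.9 CPM at 48 h for Ifngr2, with overlapping groups. Of the type III chains, Ifnlr1 was at 16.7 and 18.5 CPM at 24 h and 26.7 and 18.3 CPM at 48 h and Il10rb, which also serves interleukin 10, was at 47.7 and 29.7 CPM at 24 h and 59.1 and 51.3 CPM at 48 h. The libraries of Ifnar2 and Il10rb did not overlap between the times, whereas those of the other 4 chains overlapped.

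Among the signalling proteins, the kinase Jak2 was higher at 48 h. Jak2, which serves interferon gamma and many cytokine receptors, was at 139 and 217 CPM at 24 h and 872 and 423 CPM at 48 h (log2 fold change 1.86 ± 0.41, adjusted p = 0.28). Jak1 was at 285 and 443 CPM at 24 h and 465 and 389.9 CPM at 48 h, and Tyk2 at 22.4 and 35.5 CPM at 24 h and 29.8 and 21.4 CPM at 48 h. Stat2 was at 88.1 and 112 CPM at 24 h and 103 and 91.9 CPM at 48 h, and Irf9, its DNA-binding partner, at 22.7 and 22.3 CPM at 24 h and 21.3 and 14.9 CPM at 48 h. The libraries of Jak2 and Irf9 did not overlap between the times, whereas those of Jak1, Tyk2 and Stat2 did.

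The genes that interferons induce split into a few that were much higher and many that were lower at 48 h. Of 68 measured, 65 were tested. Unadjusted p was under 0.05 for 4 in the higher direction (6.15%) and 20 in the lower (30.8%), and the median log2 fold change was -0.58. Rsad2, which encodes the antiviral radical enzyme viperin, was at 14.7 and 41.2 CPM at 24 h and 982 and 547 CPM at 48 h (log2 fold change 4.77 ± 0.61, adjusted p = 0.161). It stood at 4.91 CPM in the DMSO library of 0.5 h. Ifit3, a binder of foreign RNA, was at 8.04 and 11.9 CPM at 24 h and 129.7 and 122 CPM at 48 h (3.66 ± 0.45, adjusted p = 0.161). Oasl was at 24.8 and 16.5 CPM at 24 h and 78.1 and 59 CPM at 48 h, and the ubiquitin-like modifier Isg15 at 21.1 and 18.7 CPM at 24 h and 44.3 and 68.6 CPM at 48 h. In these 4 genes both libraries of 48 h were above both of 24 h, which was a condition for naming Rsad2 and Ifit3 among the genes of smallest p.

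On the lower side stood regulators and effectors of the same response. Irf7, the factor that amplifies interferon production, was at 35.4 and 41.5 CPM at 24 h and 8.93 and 5.77 CPM at 48 h (log2 fold change -2.38 ± 0.40, adjusted p = 0.27). Mx2, a dynamin-like antiviral GTPase, was at 35.8 and 37.7 CPM at 24 h and 3.11 and 6.6 CPM at 48 h (-2.94 ± 0.64, adjusted p = 0.28). Bst2, which tethers budding virus, was at 48 and 54 CPM at 24 h and 15.5 and 21 CPM at 48 h. Ifi44 was at 65.1 and 30.3 CPM at 24 h and 12.8 and 13.9 CPM at 48 h, Parp9 at 42.4 and 33.2 CPM at 24 h and 17.1 and 15.7 CPM at 48 h, and Oasl2 at 29.9 and 26.8 CPM at 24 h and 11.1 and 11.2 CPM at 48 h. The deconjugating enzyme Usp18, a brake on the receptor, was at 9.01 and 8.86 CPM at 24 h and 2.42 and 3.63 CPM at 48 h. Ifit2, a neighbour of Ifit3 in function, was at 55.9 and 73.3 CPM at 24 h and 32 and 45 CPM at 48 h, and members of the same family lay on opposite sides. Of 22 antiviral effectors tested, 4 were higher and 8 lower at an unadjusted p under 0.05. Among 6 transcription factors the counts were 0 and 2, among 7 GTPases 0 and 3, and among 7 sensors 0 and 1. The lower members numbered 19 and 26 without replicate 1 or 2 of 24 h and 15 and 16 without replicate 1 or 2 of 48 h, and the higher ones between 4 and 7.

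**Figure D2:**
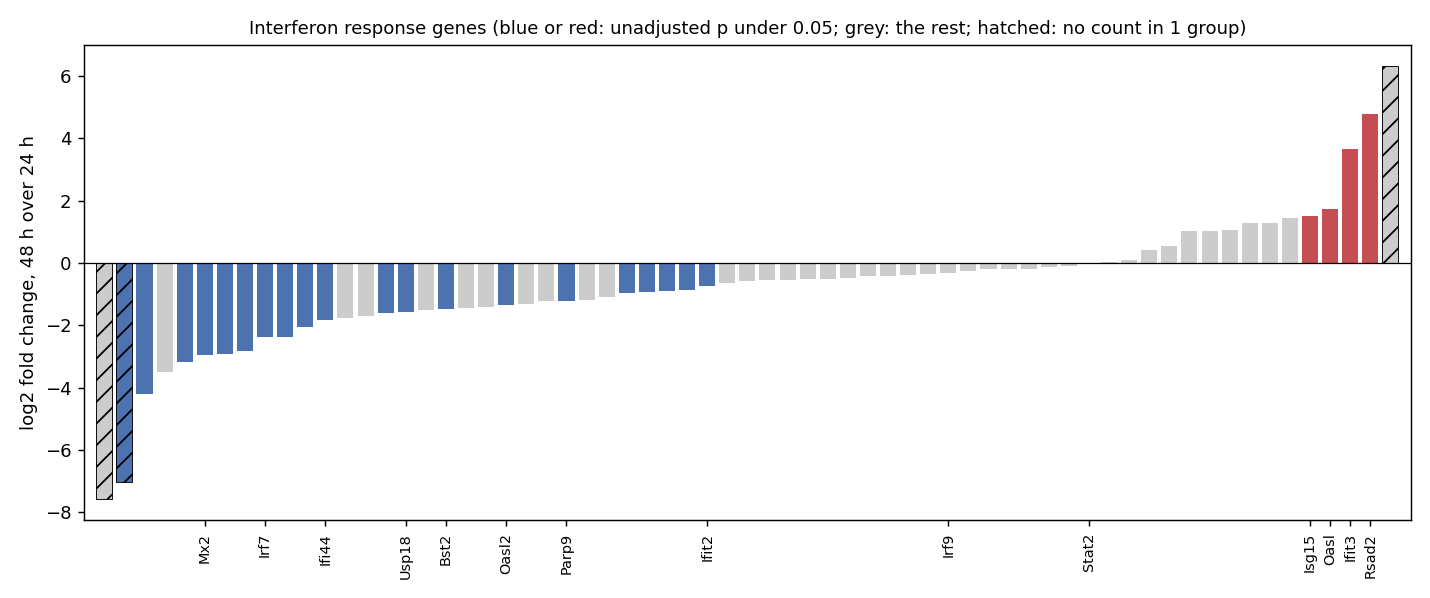
Log2 fold change of 48 h over 24 h (vertical axis) for each of the 65 interferon response genes tested, in ascending order, coloured where the unadjusted p was under 0.05 and hatched where a group had no count, for which the fitted value is no bound. Names mark the genes whose levels are given in the text. Of the coloured genes, 20 were lower and 4 (Isg15, Oasl, Ifit3 and Rsad2) higher at 48 h.

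Antigen presentation is also induced by interferons. Of 22 class I genes tested, 0 were higher and 1 lower at an unadjusted p under 0.05, with a median log2 fold change of -0.08. The 1 lower gene was RT1-S3, a non-classical class I chain, at 20.8 and 16.6 CPM at 24 h and 4.54 and 4.18 CPM at 48 h (log2 fold change -2.10 ± 0.35, adjusted p = 0.27). Without replicate 1 of 24 h the class I median was 0.21, with 2 higher and 1 lower, and without replicate 2 it was -0.30, with 2 and 4. Of 8 class II genes measured, 5 were tested, and 2 of these were lower and 0 higher at an unadjusted p under 0.05. The lower genes were the invariant chain Cd74, at 3.93 and 2.49 CPM at 24 h and 0.622 and 1.02 CPM at 48 h, and RT1-Da, at 1.36 and 2.3 CPM at 24 h and without a count at 48 h, at least 6.55-fold lower. RT1-Bb lay on the other side, at 3.67 and 3.62 CPM at 24 h and 7.03 and 7.62 CPM at 48 h, without overlap. Of the 5 genes tested, 3 had a positive and 2 a negative fold change, with a median of 1.01. In library order this median was 1.02, 0.98, 1.04 and -2.36. The class II genes were low in all 4 libraries, at a summed 8.96 and 8.89 CPM at 24 h and 7.87 and 12.1 CPM at 48 h. Rat class I and class II chains, Oas1 genes and metallothioneins have near-identical copies, and their counts are uncertain where reads could have been assigned to either copy.

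Sarcomere genes gave the largest count on the lower side among the 51 lists. Of 34 measured, 33 were tested, 25 had an unadjusted p under 0.05 in the lower direction and 0 in the higher, and libraries of 28 did not overlap with at least a 2-fold lower mean. The median log2 fold change was -2.78, or -2.73 with the gene lacking counts at its bound. In the thick filament, the ventricular light chains Myl3 and Myl2 were at 1706 and 268 CPM at 24 h and 13.6 and 46.2 CPM at 48 h and at 1013 and 109 CPM at 24 h and 4.14 and 22.6 CPM at 48 h. Myl3 had a log2 fold change of -5.05 ± 0.99 (adjusted p = 0.28) and Myl2 one of -5.41 ± 1.21 (adjusted p = 0.28). The atrial light chain Myl7 was at 99 and 20.6 CPM at 24 h and 2.23 and 4.65 CPM at 48 h. The heavy chain Myh6 was lower by a log2 value of -3.47 ± 0.79 at the levels given above, and beta-myosin heavy chain, Myh7, was at 716 and 129 CPM at 24 h and 13.2 and 83.3 CPM at 48 h. In each of these genes replicate 1 of 24 h was several times above replicate 2, and replicate 2 of 48 h above replicate 1.

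The thin filament followed. Tnnc1, the calcium-binding troponin, was at 1608 and 368 CPM at 24 h and 19.6 and 71 CPM at 48 h (log2 fold change -4.45 ± 0.87, adjusted p = 0.28). Inhibitory cardiac troponin, Tnni3, was at 945 and 138 CPM at 24 h and 9.22 and 27.8 CPM at 48 h (-4.88 ± 0.97, adjusted p = 0.28). Cardiac actin, Actc1, was at 1058 and 143 CPM at 24 h and 21 and 79.8 CPM at 48 h, and skeletal actin, Acta1, at 49 and 47.6 CPM at 24 h and 6.15 and 15.3 CPM at 48 h, the latter with its 24 h libraries close together. Tnnt2, the tropomyosin-binding troponin, was at 3215 and 1057 CPM at 24 h and 134 and 946 CPM at 48 h (unadjusted p = 0.054), where replicate 2 of 48 h came near replicate 2 of 24 h. The actin-capping Tmod1 did not share the pattern, at 54.2 and 35.9 CPM at 24 h and 30.5 and 49.1 CPM at 48 h (log2 fold change -0.18 ± 0.34). At the Z-disc, the actin crosslinker Actn2 was at 289.7 and 108 CPM at 24 h and 17.3 and 63.2 CPM at 48 h, and the sensor protein Csrp3 at 119.5 and 36.6 CPM at 24 h and 7.43 and 18.4 CPM at 48 h. Ankrd1, a stretch-responsive titin partner, was at 820.1 and 187 CPM at 24 h and 35.9 and 229.8 CPM at 48 h, with overlapping groups. The median was -3.61 over 9 thick filament genes, -2.45 over 9 thin filament genes and -2.36 over 15 genes of Z-disc, M-band and titin.

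The size of the sarcomere difference varied with the library. Summed sarcomere levels with rosiglitazone were 22970.0 and 20950.0 CPM at 0.5 h, 17190.0 and 4372 CPM at 24 h and 548 and 2540.0 CPM at 48 h. The groups of 24 and 48 h did not overlap, but replicate 2 of 24 h lay closer to 48 h than to replicate 1. The median log2 fold change was -1.52 without replicate 1 of 24 h and -3.45 without replicate 2. It was -2.10 without replicate 1 of 48 h and -4.11 without replicate 2. Members at an unadjusted p under 0.05 in the lower direction numbered 13, 24, 15 and 28 in that order. Fibroblast markers, summed over 14 genes, were at 36160.0 and 33090.0 CPM at 24 h and 17690.0 and 34070.0 CPM at 48 h, overlapping between the times. The part of cell composition in the sarcomere result was not tested.

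**Figure D3:**
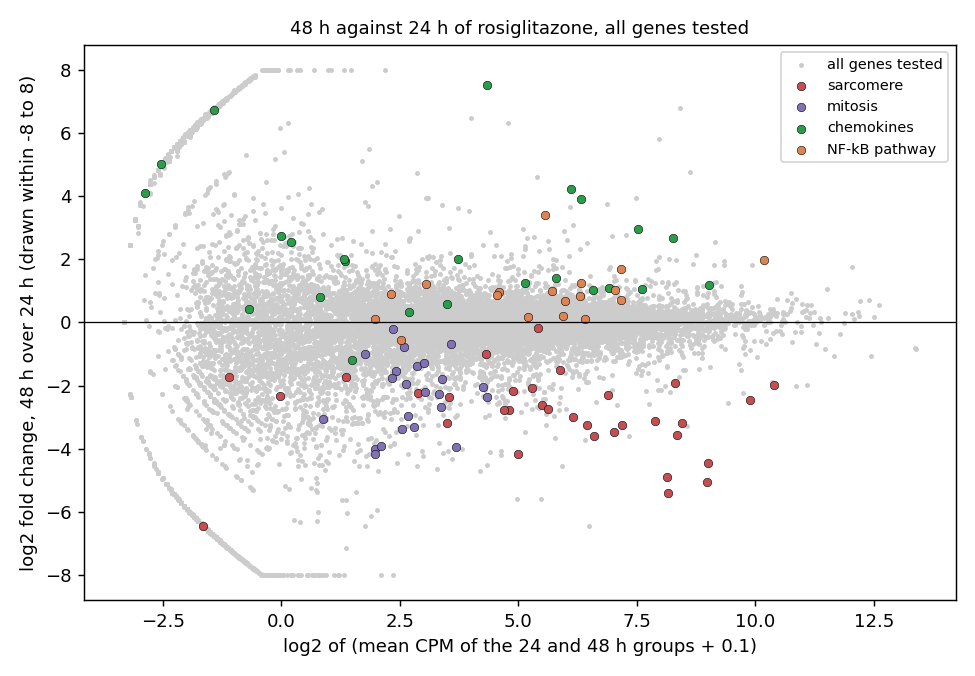
Log2 fold change of 48 h over 24 h against the log2 mean level for the 15655 genes tested (grey), with sarcomere, mitosis, chemokine and NF-kB genes in colour. Sarcomere genes (median -2.78) lay below zero at all levels, and chemokines (median 1.97) and NF-kB genes (median 0.89) mostly above.

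Other myocyte genes were lower as well. Of 25 calcium-handling genes, 8 were lower and 0 higher at an unadjusted p under 0.05, with a median of -1.09. Casq2, which stores calcium in the sarcoplasmic reticulum, was at 256 and 57 CPM at 24 h and 7.21 and 16.6 CPM at 48 h (log2 fold change -3.73 ± 0.74, adjusted p = 0.28). The release channel Ryr2 was at 76 and 63.1 CPM at 24 h and 9.96 and 23.5 CPM at 48 h (-2.07 ± 0.42, adjusted p = 0.28). The calcium pump Atp2a2 was at 1506 and 1337 CPM at 24 h and 616 and 715 CPM at 48 h, with close replicates at both times. Its inhibitor phospholamban, Pln, was at 1290.1 and 80.4 CPM at 24 h and 7.76 and 134 CPM at 48 h, and its groups overlapped. For calcium entry, the L-type channel subunits Cacnb2 and Cacna1c were at 21.9 and 17.2 CPM at 24 h and 4.03 and 7.44 CPM at 48 h and at 40.9 and 47.6 CPM at 24 h and 13.3 and 26 CPM at 48 h. In library order the median of this list was -0.52, -1.15, -0.65 and -1.74, with 7, 12, 6 and 13 members lower at an unadjusted p under 0.05.

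Ion channels, transcription factors and secreted heart hormones showed the same direction. Of 18 channels, 4 were lower and 0 higher at an unadjusted p under 0.05, among them the potassium channel Kcnh2 at 14.5 and 4.6 CPM at 24 h and 1.43 and 2.32 CPM at 48 h. Of 19 cardiac transcription factors, 4 were lower and 0 higher. Mef2c was at 54.8 and 35 CPM at 24 h and 7.61 and 13.3 CPM at 48 h (log2 fold change -2.11 ± 0.38, adjusted p = 0.27), and the nuclear receptor Esrrg at 83.1 and 52 CPM at 24 h and 3.77 and 16.6 CPM at 48 h. Myocd, a coactivator of serum response factor shared by heart and smooth muscle, was at 5.2 and 7.91 CPM at 24 h and 1.21 and 0.837 CPM at 48 h. Atrial natriuretic peptide, Nppa, was at 1640.4 and 720.1 CPM at 24 h and 142 and 265 CPM at 48 h (-2.54 ± 0.49, adjusted p = 0.28), and brain natriuretic peptide, Nppb, at 152 and 21 CPM at 24 h and 2.05 and 16.6 CPM at 48 h. Of 13 genes of the junction between myocytes, 5 were lower and 0 higher, including desmoplakin, Dsp, at 134 and 146 CPM at 24 h and 55.5 and 85.7 CPM at 48 h. The gap junction protein Gja1 was at 1037 and 287 CPM at 24 h and 242 and 239 CPM at 48 h, where replicate 1 of 24 h alone was high. The counts of these lists varied with the library left out. For channels the lower members numbered 2, 6, 1 and 9 in library order, and the median of -1.03 became -0.46, -1.18, -0.69 and -1.97. Transcription factors gave 4, 6, 3 and 7 lower members, and their median of -0.81 became -0.19 without replicate 1 of 24 h and -1.06 without replicate 2 of 48 h. Junction genes had medians of -0.44, -0.94, -0.49 and -1.33 in library order, against -0.95 with all libraries.

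Energy-buffering genes of muscle were also lower at 48 h. Muscle creatine kinase, Ckm, was at 162 and 38.7 CPM at 24 h and 5.01 and 11 CPM at 48 h (log2 fold change -3.67 ± 0.73, adjusted p = 0.28). Myoglobin, Mb, was at 336 and 19.4 CPM at 24 h and 0.842 and 3.53 CPM at 48 h (-6.45 ± 1.40, adjusted p = 0.28). Mitochondrial creatine kinase, Ckmt2, was at 2.8 and 1.39 CPM at 24 h and had no count at 48 h, at least 7.51-fold lower against a limit of 3 counts in the shallower 48 h library. Of 10 genes tested, 5 were lower at an unadjusted p under 0.05 and 0 higher, with a median of -2.44. In library order the lower members numbered 3, 6, 3 and 5 and the median was -0.71, -3.26, -2.15 and -2.89. Tmem182, a membrane protein enriched in muscle, was at 41.1 and 11.1 CPM at 24 h and 1.43 and 1.86 CPM at 48 h (log2 fold change -4.01 ± 0.66, adjusted p = 0.27). Ppp1r3a, which brings protein phosphatase 1 to glycogen in muscle, was at 38.8 and 24.9 CPM at 24 h and 5.97 and 6.79 CPM at 48 h (-2.32 ± 0.37, adjusted p = 0.27).

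Genes of mitosis were lower at 48 h. Of 23 tested, 16 had an unadjusted p under 0.05 in the lower direction and 0 in the higher, with a median log2 fold change of -2.21. Nusap1, which bundles spindle microtubules, was at 14.3 and 6.52 CPM at 24 h and 1.06 and 0.93 CPM at 48 h (log2 fold change -3.37 ± 0.50, adjusted p = 0.27). Kif23, a kinesin of cell division, was at 17 and 7.91 CPM at 24 h and 0.915 and 1.67 CPM at 48 h (-3.32 ± 0.52, adjusted p = 0.27). Birc5, a subunit of the chromosomal passenger complex, was at 9.62 and 4.75 CPM at 24 h and 0.366 and 0.558 CPM at 48 h, and the kinetochore protein Cenpf at 27.8 and 20.1 CPM at 24 h and 0.695 and 2.7 CPM at 48 h. The kinase Cdk1 was at 42.1 and 19.4 CPM at 24 h and 4.87 and 10.1 CPM at 48 h. The proliferation marker Mki67 was at 26.3 and 6.26 CPM at 24 h and 1.24 and 5.86 CPM at 48 h, where replicate 2 of 48 h came within reach of replicate 2 of 24 h (unadjusted p = 0.065). Foxm1, a transcription factor of this program, was at 6.25 and 4.52 CPM at 24 h and 3.44 and 5.95 CPM at 48 h, with overlapping groups. Summed over the list, levels were 1783 and 1264 CPM at 0.5 h, 398 and 181 CPM at 24 h and 54.6 and 89.3 CPM at 48 h. Medians without 1 library of 24 or 48 h ranged from -2.70 to -1.38, the latter without replicate 1 of 24 h.

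Some DNA replication genes were lower, and some growth-arrest genes higher. Of 20 replication genes, 7 were lower and 0 higher at an unadjusted p under 0.05, with a median of -0.53. The ribonucleotide reductase subunit Rrm2 was at 6.29 and 2.41 CPM at 24 h and 0.403 and 0.744 CPM at 48 h, and the helicase subunit Mcm6 at 32.3 and 24.8 CPM at 24 h and 12.6 and 12.6 CPM at 48 h, with equal libraries of 48 h. Of 16 genes of p53 and growth arrest, 3 were higher and 0 lower. Cdkn1a, which encodes the cyclin kinase inhibitor p21, was at 238 and 249 CPM at 24 h and 514 and 459.7 CPM at 48 h (log2 fold change 1.00 ± 0.25, unadjusted p = 0.0041). Mdm2, the ubiquitin ligase of p53, was at 129 and 159 CPM at 24 h and 315 and 183 CPM at 48 h, and Cdkn2b at 108 and 114 CPM at 24 h and 300.2 and 129.8 CPM at 48 h. In both of these replicate 2 of 48 h was only slightly above the 24 h libraries. Replication genes had medians of -0.25, -0.88, -0.67 and -0.54 in library order and 6, 10, 5 and 6 lower members, and growth-arrest genes had 2, 5, 1 and 4 higher and 1, 2, 0 and 1 lower members.

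**Figure D4:**
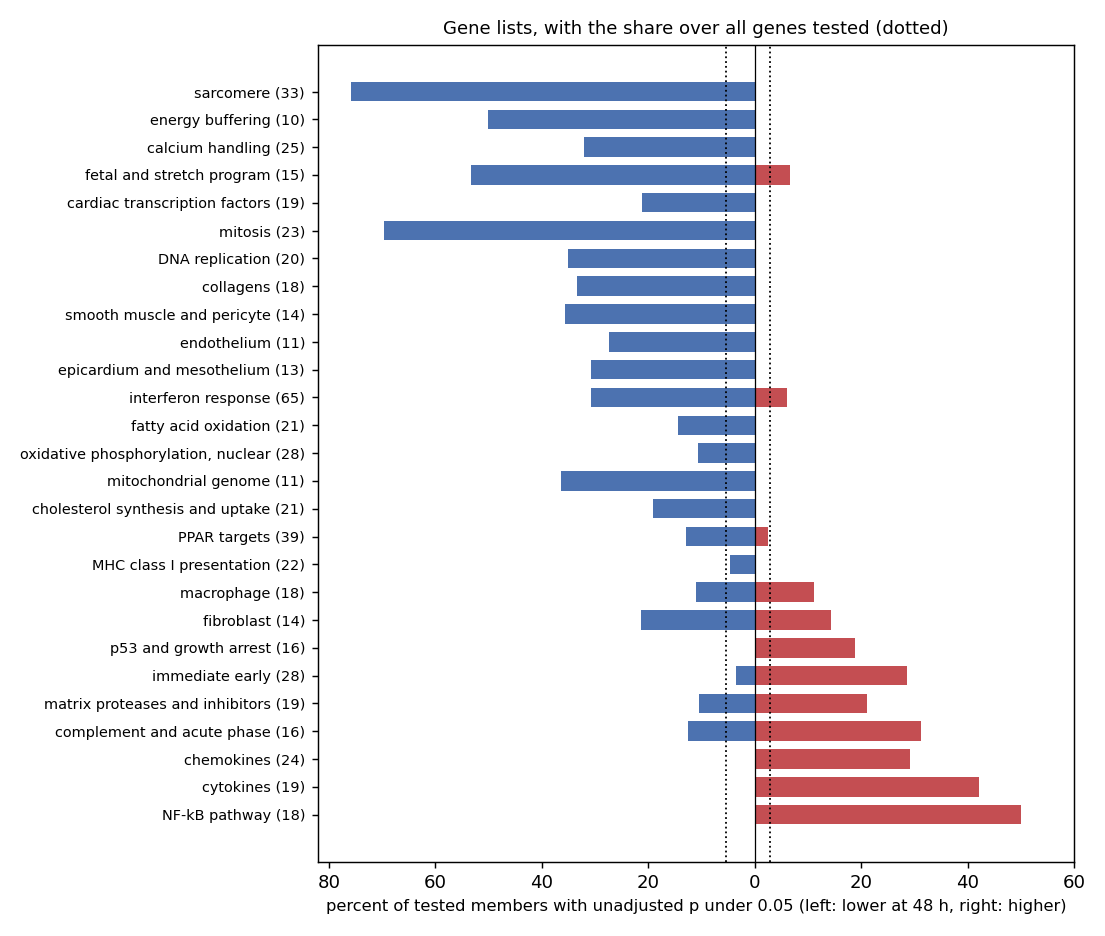
Percent of tested members with an unadjusted p under 0.05 in 27 gene lists, to the left where lower and to the right where higher at 48 h, with the number tested in brackets and dotted lines at the share over all genes (5.34% lower, 2.80% higher). The longest bars to the left were sarcomere (75.8%) and mitosis (69.6%), and to the right NF-kB (9 of 18) and cytokines (42.1%).

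Mitochondrial and lipid genes gave a difference that rested on replicate 1 of 24 h. Transcripts of the mitochondrial genome were at a summed 31550.0 and 6997 CPM at 24 h and 8358 and 5694 CPM at 48 h. Cytochrome oxidase subunit 2, Mt-co2, was at 6027 and 986 CPM at 24 h and 831 and 940.5 CPM at 48 h (log2 fold change -1.99 ± 0.72, unadjusted p = 0.027). Cytochrome b, Mt-cyb, was at 2505 and 321 CPM at 24 h and 406 and 201 CPM at 48 h. Replicate 1 of 24 h alone was high, and replicate 2 of 24 h lay within or close to the range of the 48 h libraries. The median of 11 genes was -1.50, but -0.07 without replicate 1 of 24 h and -2.34 without replicate 2. The count in the lower direction at an unadjusted p under 0.05 was 4 with both, 0 without replicate 1 and 11 without replicate 2.

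The nuclear genes of energy metabolism behaved alike. For oxidative phosphorylation the median log2 fold change of 28 genes was -0.67, and 0.02 without replicate 1 of 24 h. For fatty acid oxidation the median of 21 genes was -0.61, and -0.02 without that library. For cholesterol synthesis and uptake the median of 21 genes was -0.77, and 0.05 without it. Hmgcs1, the enzyme that makes HMG-CoA for sterols, was at 606 and 207 CPM at 24 h and 149 and 161 CPM at 48 h. The isomerase Idi1 was at 275 and 66.5 CPM at 24 h and 42.3 and 57.7 CPM at 48 h, and Sqle, the squalene epoxidase, at 244 and 113 CPM at 24 h and 101 and 92.2 CPM at 48 h, again with replicate 1 of 24 h alone high.

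**Figure D5:**
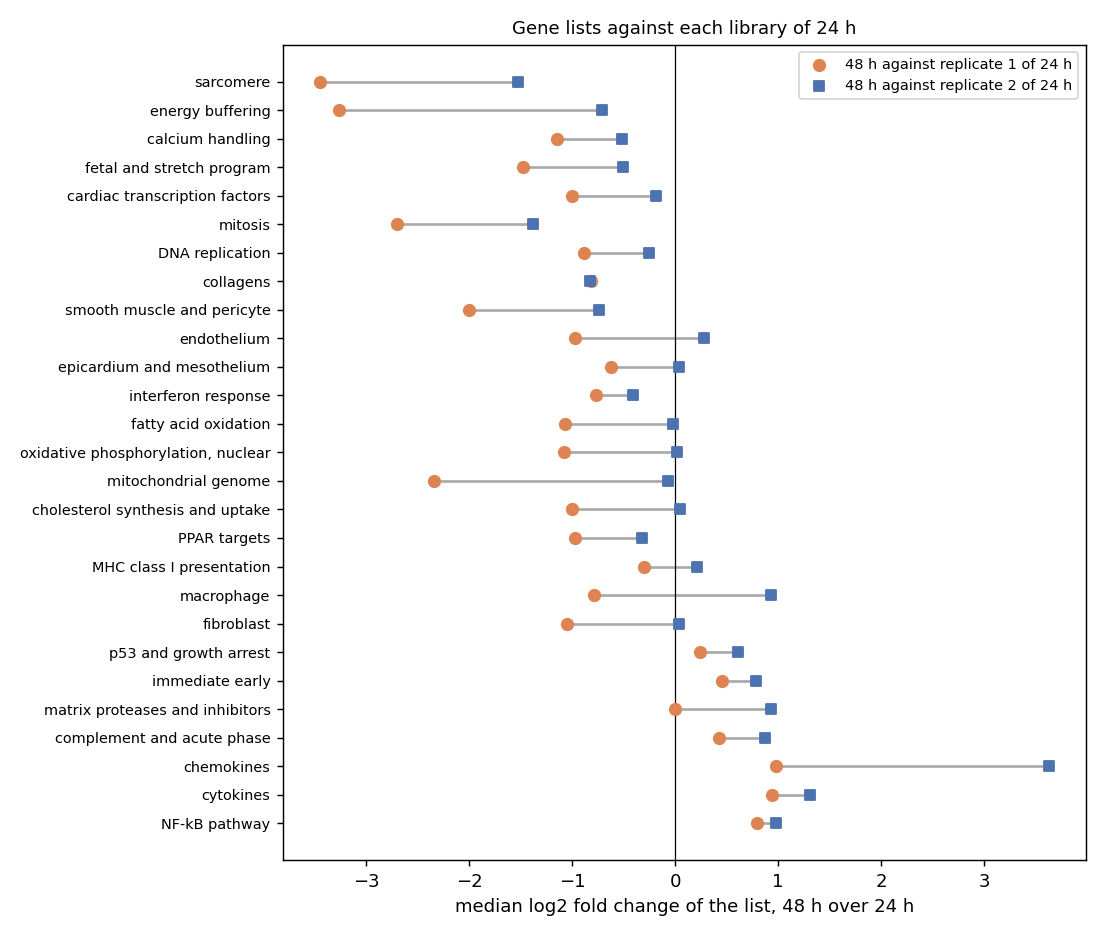
Median log2 fold change (horizontal axis) of 27 gene lists when the 48 h libraries were compared with replicate 1 of 24 h alone (orange circles) or replicate 2 alone (blue squares). Sarcomere (-3.45 and -1.52) and mitosis (-2.70 and -1.38) stayed below zero against each library, chemokines (0.98 and 3.63) and NF-kB genes (0.80 and 0.98) above it, and the mitochondrial genome (-2.34 and -0.07) was near zero against replicate 2.

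The receptor that rosiglitazone activates, its relatives and most of their targets did not pass the unadjusted test on the second day. Pparg was at 5.03 and 3.24 CPM at 24 h and 2.42 and 1.58 CPM at 48 h (log2 fold change -1.04 ± 0.85, unadjusted p = 0.26). Its libraries of 48 h lay below those of 24 h without overlap. Ppara was at 3.89 and 11.3 CPM at 24 h and 6.11 and 5.39 CPM at 48 h, and Ppard at 54.5 and 48 CPM at 24 h and 52.4 and 40.6 CPM at 48 h, with overlapping groups in both. The coactivator Ppargc1a was at 4.24 and 2.26 CPM at 24 h and 1.9 and 1.86 CPM at 48 h. Of 15 PPAR receptors and partners tested, 0 were higher and 2 lower (13.3%, against 5.34% of all genes) at an unadjusted p under 0.05. Libraries of 3 did not overlap with at least a 2-fold lower mean at 48 h. The median was -0.14, and 0.22 without replicate 2 of 24 h. Of 43 PPAR target genes measured, 39 were tested, 1 was higher and 5 were lower at an unadjusted p under 0.05, and the median was -0.60. The higher gene was Cyp4b1, a cytochrome P450 monooxygenase, at 8.61 and 20.9 CPM at 24 h and 88.3 and 165 CPM at 48 h (log2 fold change 3.10 ± 0.52, adjusted p = 0.27), against 2.29 and 2.25 CPM with rosiglitazone at 0.5 h.

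The best-known responders to PPAR agonists did not pass even the unadjusted test between 24 and 48 h. Angptl4, a secreted protein that inhibits lipoprotein lipase, stood at 35.9 and 43.1 CPM with rosiglitazone at 0.5 h, 545 and 417 CPM at 24 h and 844 and 647 CPM at 48 h (log2 fold change 0.63 ± 0.29, unadjusted p = 0.064). Its libraries of 48 h were above those of 24 h. The thioesterase Acot2 was at 23.4 and 29.5 CPM, 382 and 534 CPM and 464 and 668 CPM at the same times, overlapping between 24 and 48 h (0.31 ± 0.32). Plin2, a coat protein of lipid droplets, was at 273 and 223 CPM at 24 h and 519.9 and 284 CPM at 48 h. The kinase Pdk4, which shuts pyruvate oxidation, was at 21.9 and 38.8 CPM at 24 h and 27.2 and 26.4 CPM at 48 h, and the carnitine transferase Cpt1a at 177 and 141 CPM at 24 h and 175 and 112 CPM at 48 h. The adipocyte and endothelial carrier Fabp4 was at 36.6 and 10.8 CPM at 24 h and 7.8 and 24.5 CPM at 48 h. The groups of these last 3 genes overlapped. The targets lower at 48 h included genes that heart muscle uses to take up and burn fat. Acsl1, which activates fatty acids, was at 561 and 282 CPM at 24 h and 67 and 126 CPM at 48 h (log2 fold change -2.13 ± 0.44, adjusted p = 0.28). The heart fatty acid carrier Fabp3 was at 553 and 45 CPM at 24 h and 5.45 and 44.7 CPM at 48 h, where replicate 2 of both times was almost equal. Cpt1b, the muscle form of the carnitine transferase, was at 251 and 189 CPM at 24 h and 94 and 161 CPM at 48 h. In library order the median of the targets was -0.32, -0.97, -0.47 and -0.69. Their counts at the unadjusted threshold also varied with the library left out, as those over all genes did.

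Among matrix genes, several collagens were lower and some proteases higher at 48 h. Of 18 collagens, 6 were lower and 0 higher at an unadjusted p under 0.05, with a median of -0.83. In library order the median was -0.83, -0.82, -0.28 and -1.66, and the lower members numbered 2, 1, 3 and 13. Col8a1, a short-chain collagen, was at 91.5 and 59.4 CPM at 24 h and 12 and 11 CPM at 48 h (log2 fold change -2.71 ± 0.32, adjusted p = 0.161). The microfibrillar Col6a3 was at 381 and 418 CPM at 24 h and 27 and 153 CPM at 48 h. Fibrillar Col3a1 was at 14489.5 and 12457 CPM at 24 h and 2239 and 13091 CPM at 48 h, low in replicate 1 of 48 h only. The basement membrane collagen Col4a1 was at 3731 and 7203 CPM at 24 h and 5673 and 6741 CPM at 48 h, with overlapping groups. Of 19 proteases and inhibitors, 4 were higher and 2 lower. The gelatinase Mmp2 was at 1975 and 1799.8 CPM at 24 h and 4296 and 3548 CPM at 48 h (log2 fold change 1.06 ± 0.30, unadjusted p = 0.0085). Stromelysin, Mmp3, was at 0.262 and 6.33 CPM at 24 h and 155 and 5.67 CPM at 48 h. Collagenase 3, Mmp13, had no count at 24 h and 16.9 and 0.837 CPM at 48 h, with a mean at least 67.7-fold higher. Mmp3 and Mmp13 were high in replicate 1 of 48 h alone. The median of the proteases and inhibitors was 0.26. Their counts at the unadjusted threshold varied with the library left out, as those over all genes did.

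Markers of the other heart cell types gave mixed results. Among 14 fibroblast markers, 2 were higher and 3 lower at an unadjusted p under 0.05. Decorin, Dcn, a small matrix proteoglycan, was at 2156 and 1712 CPM at 24 h and 8477 and 4549 CPM at 48 h (log2 fold change 1.75 ± 0.39), and the growth factor receptor Pdgfra at 296 and 259 CPM at 24 h and 474 and 722 CPM at 48 h. S100a4 was at 808 and 159 CPM at 24 h and 60.4 and 149 CPM at 48 h, where replicate 2 of both times was close, and periostin, Postn, at 4491 and 2794 CPM at 24 h and 766 and 3299 CPM at 48 h. The median of the fibroblast list was -0.84, 0.04 without replicate 1 of 24 h and -1.05 without replicate 2. Of 14 smooth muscle and pericyte markers, 14 had a negative fold change and 5 were lower at an unadjusted p under 0.05, with a median of -1.51. In library order the median was -0.74, -2.00, -0.95 and -2.12, and the lower members numbered 4, 7, 1 and 9. Calponin, Cnn1, was at 14.3 and 1.997 CPM at 24 h and 0.476 and 1.12 CPM at 48 h. Smooth muscle actin, Acta2, was at 502 and 136 CPM at 24 h and 22.1 and 189 CPM at 48 h, with overlapping groups. Endothelial markers gave 3 lower and 0 higher of 11, with a median of -0.64. Their median turned positive, at 0.28, without replicate 1 of 24 h, where 2 were lower and 2 higher, and was -0.97, -1.08 and -0.86 without each of the others. The VEGF receptors Kdr and Flt1 were at 11.8 and 5.2 CPM at 24 h and 1.68 and 1.21 CPM at 48 h and at 19.1 and 28.7 CPM at 24 h and 13.1 and 11.2 CPM at 48 h, while the junction protein Cdh5 was at 14.5 and 4.41 CPM at 24 h and 4.03 and 8.18 CPM at 48 h, with overlap. Of 13 markers of the heart's outer layer, 4 were lower and 0 higher at an unadjusted p under 0.05. Fold changes were positive in 5 and negative in 7, with a median of -0.17. In library order this median was 0.04, -0.62, 0.0 and -1.21. Among the lower ones was mesothelin, Msln, at 96.6 and 34.9 CPM at 24 h and 13.7 and 19.1 CPM at 48 h.

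Immediate early and acute-phase genes were higher in part. Of 28 immediate early genes, 8 were higher and 1 lower at an unadjusted p under 0.05. The mRNA-decay factor Zfp36 was at 39.8 and 30.8 CPM at 24 h and 69.1 and 77.1 CPM at 48 h (log2 fold change 1.05 ± 0.28, unadjusted p = 0.0058). The AP-1 subunit Junb was at 90.2 and 56.8 CPM at 24 h and 162 and 147 CPM at 48 h, and the MAP kinase phosphatase Dusp1 at 17.3 and 19.4 CPM at 24 h and 40.9 and 34.4 CPM at 48 h. Replicates of 48 h lay close together in these 3 genes. Fos was at 6.21 and 4.75 CPM at 24 h and 3.22 and 14 CPM at 48 h and Jun at 87.7 and 63.1 CPM at 24 h and 69.9 and 66.4 CPM at 48 h, with overlap in both. Of 16 complement and acute-phase genes, 5 were higher and 2 lower. The pattern-recognition protein Ptx3 was at 127 and 65.9 CPM at 24 h and 216 and 588 CPM at 48 h, and the iron-siderophore binder Lcn2 at 218 and 115 CPM at 24 h and 1543 and 389 CPM at 48 h. C3, the central complement protein, was at 101 and 83.4 CPM at 24 h and 34.3 and 46.6 CPM at 48 h (log2 fold change -1.19 ± 0.28), opposite to the complement protease C1r, at 626 and 407 CPM at 24 h and 976 and 1329 CPM at 48 h. The cyclooxygenase Ptgs2 was at 19.3 and 25 CPM at 24 h and 651 and 22.5 CPM at 48 h, with replicate 1 of 48 h alone high. Higher immediate early genes numbered 10, 7, 5 and 8 in library order. Complement and acute-phase genes gave 6, 4, 5 and 3 higher and 3, 2, 1 and 4 lower members, and their median of 0.36 became -0.14 without replicate 2 of 48 h.

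Metallothioneins, which bind zinc and copper, were higher at 48 h. Mt2A was at 190.0 and 350.0 CPM at 24 h and 992 and 1070.3 CPM at 48 h (log2 fold change 1.93 ± 0.35, adjusted p = 0.27), and Mt1 at 46.3 and 88.5 CPM at 24 h and 185 and 241 CPM at 48 h (1.66 ± 0.36, adjusted p = 0.28). With rosiglitazone at 0.5 h they were at 8.45 and 9.52 CPM and at 0.669 and 0.618 CPM. The aryl hydrocarbon receptor target Cyp1a1 was lower at 48 h than at 24 h, at 85.8 and 55.2 CPM at 24 h and 19.6 and 41.9 CPM at 48 h (log2 fold change -1.20 ± 0.49, unadjusted p = 0.041). The list of this receptor's genes did not share 1 direction. Of 8 tested, fold changes were positive in 5 and negative in 3, with a median of 0.17, and 1 was higher and 2 were lower at an unadjusted p under 0.05. Among clock genes Per2 was at 18.8 and 15.5 CPM at 24 h and 6.08 and 4.28 CPM at 48 h, and 3 of 16 were lower and 0 higher. Of 16 heat shock genes, 1 was higher and 4 were lower at an unadjusted p under 0.05. Fold changes were positive in 8 and negative in 8, with a median of 0.04. The lower genes included small heat shock proteins of muscle. Hspb7 was at 583 and 159 CPM at 24 h and 16.3 and 108 CPM at 48 h. Cryab was at 803 and 485 CPM at 24 h and 205 and 388 CPM at 48 h. Lower clock genes numbered 1, 2, 0 and 0 in library order.

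Several of the genes with the smallest p belonged to none of these groups. Csf2rb, the shared signalling chain of the receptors for GM-CSF and interleukin 3, was at 14.1 and 15.7 CPM at 24 h and 139 and 80.3 CPM at 48 h (log2 fold change 2.88 ± 0.37, adjusted p = 0.161). Has2, which makes hyaluronan, was at 14.9 and 18.4 CPM at 24 h and 91.7 and 75.9 CPM at 48 h (2.33 ± 0.31, adjusted p = 0.174). Frzb, a secreted Wnt antagonist, was at 12.3 and 9.16 CPM at 24 h and 81.7 and 58.7 CPM at 48 h, and Sulf1, which removes sulfate from heparan chains, at 118 and 114 CPM at 24 h and 582 and 347 CPM at 48 h. Parvalbumin, Pvalb, a calcium buffer, was at 13 and 8.89 CPM at 24 h and 44.1 and 73.9 CPM at 48 h, against 0.282 and 0.254 CPM with rosiglitazone at 0.5 h. On the lower side Cdh13, the membrane-anchored T-cadherin, was at 35.5 and 39.7 CPM at 24 h and 11.8 and 11.6 CPM at 48 h (-1.68 ± 0.28, adjusted p = 0.27). The tubulin Tubb2b was at 13.6 and 6.48 CPM at 24 h and 1.28 and 1.12 CPM at 48 h, and Nipal2 at 11.4 and 13 CPM at 24 h and 1.32 and 1.95 CPM at 48 h. Absence of overlap between 24 and 48 h was a condition for naming these 8 genes, so it adds no support. Replicates of 1 time differed by less than the times did, which choosing genes by small p also favours.

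Housekeeping groups gave few calls at the unadjusted threshold. Of 23 ribosomal protein genes tested, 0 were higher and 0 lower at an unadjusted p under 0.05, with a median of 0.07. Of 21 proteasome subunits the counts were 0 and 0, with a median of -0.03. Lysosome and autophagy genes gave 1 higher and 0 lower of 23. For genes of cell death the counts were 1 and 0 of 25. Without replicate 1 of 24 h, 5 ribosomal protein genes and 5 genes of cell death were higher at the same threshold, and without replicate 2 of 24 h, 4 lysosome and autophagy genes were higher and 2 lower.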

How the data were processed

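The authors deposited raw read counts per gene, as whole numbers, for rat Ensembl gene IDs. Per the submitters' processing notes, FastQC 0.11.5, cutadapt 1.11, HTSeq and DESeq2 were used, with the builds Rnor_6.0 and hg19. For the aligner and strand setting, nothing is stated: not given in the sources used here. Per the file headers, the authors' tables also hold, per comparison, log2 fold changes and their errors, p-values and adjusted p-values, a mean normalised signal and a test score.

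The 2 splits of each library were summed, and each of 32545 genes was used once (460 entries repeat a gene). The counts of 4 groups were fitted in edgeR 4.0.16 (R 4.3.3) with TMM scaling, its own low-count filter and robust quasi-likelihood dispersions (3 residual degrees of freedom), and 48 h was tested against 24 h with Benjamini-Hochberg adjustment over all 15655 genes. SE values are from that fit. DESeq2 1.42.0, other scalings and filters, each split alone, splits as replicates, a block and left-out libraries were alternatives. The fit was tested on simulated data.

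The members and the 51 gene lists (1024 entries, 1005 matched, 2 of them through a synonym or RefSeq link) were chosen with earlier results of these data known. Genes named are the 10 of smallest p in each direction with a mean of at least 5 CPM and no overlap, up to 4 of smallest p from each list with at least 3 members and 15% of its tested members at an unadjusted p under 0.05 in 1 direction, a fixed set of PPAR, heart and marker genes, and the interferon receptors and signalling proteins. List members named beyond this rule were chosen after their values were seen. A count of 0 allows up to 3 counts, for counting error only. In the shallower library this was 0.131 CPM at 24 h and 0.279 CPM at 48 h. Each bound on a fold set the mean of the other time against this limit, so a single library can lie closer to it.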

Additional observations from a re-analysis of the deposited data

How the results depend on the processing

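The number of genes past the adjusted threshold was 0 with DESeq2 or library-size scaling, a mean of at least 5 CPM, only the 4 libraries, either split alone and the replicate block. It was 19 without a filter, 492 with the DESeq2 test, 2890 with splits as replicates and 9 at an adjusted p under 0.2, and 0 to 509 with 1 library left out, the 509 without replicate 2 of 24 h. Genes with an unadjusted p under 0.05 numbered 438 higher and 836 lower of 15655 tested in the reported fit. At a mean of at least 5 CPM they were 289 higher and 642 lower of 10497 tested. They were 251 higher and 453 lower of 13340 tested with only the 4 libraries, and 2173 and 2869 of 14481 with splits as replicates. They ranged over 227 to 1415 higher and 540 to 1827 lower with 1 library left out. With only the 4 libraries, lower members numbered 12 in place of 20 for the interferon response, 3 in place of 7 for DNA replication, 1 in place of 5 for junction genes and 1 in place of 3 for endothelial markers. Genes without overlap numbered 257 higher and 653 lower at a mean of at least 5 CPM, 2272 and 2293 with no minimum difference, and 665 to 1866 and 1215 to 2789 with 1 library left out. Of these changes, those without a library rest on fewer samples, and for the others the cause was not tested.

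Libraries with the same number did not deviate together (correlation of deviations from the group mean -0.122 between 24 and 48 h). The labels do not say how they are related, and 1 difference per time cannot show whether they shared a preparation. With the replicate block, 260 genes were higher and 597 lower at an unadjusted p under 0.05, and 0 passed the adjusted threshold. Lower members at an unadjusted p under 0.05 fell from 5 to 1 for junction genes, 5 to 2 for PPAR targets, 3 to 0 for fibroblast markers and 3 to 1 for clock genes and nuclear oxidative phosphorylation. With the numbers of 48 h crossed, an alternative chosen after seeing the data, 5 genes passed.

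Of 2576 values of the 152 named genes under the alternatives, 2271 kept direction and side of the threshold, 287 passed it where the reported value did not, and 18 changed sign or came to 0. Leaving out 1 library of 24 or 48 h, with the lone library of that time assumed to vary like the other groups, gave log2 ranges of -8.13 to 0.0 for Mfap5, -0.52 to 0.28 for Pdk4, -1.60 to 0.57 for Fabp4, -0.53 to 0.14 for Cpt1a, -0.97 to 0.55 for Ppara and -0.36 to 0.03 for Ppard. The ranges were -0.20 to 1.10 for Cd68, -0.23 to 0.79 for Ifngr1, -0.05 to 0.21 for Ifngr2, -0.04 to 0.57 for Jak1, -0.46 to 0.18 for Tyk2 and -0.18 to 0.13 for Stat2, which was also at 0.0 with split 1 alone. As no gene passed in the reported fit, none of the 152 named genes had an adjusted call to lose. Keeping the side of the threshold was therefore in part fixed in advance. With 2 libraries a time, and 1 of 48 h at less depth than the others, small differences could not be told from the spread.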
